A study of Mus musculus with 4 samples.

Results

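Among the 32285 genes counted in fracture callus and trabecular bone of mice given glucocorticoids (GCs), 10 genes of extracellular matrix breakdown were followed, namely the matrix metalloproteinases Mmp13, Mmp2, Mmp14 and Mmp3, the aggrecanases Adamts1, Adamts4 and Adamts5, and the tissue inhibitors Timp1, Timp2 and Timp3. They were chosen by gene symbol and not by their values, and each had a row in all 4 deposited matrices. Male C57BL/6J mice aged 20 weeks received prednisolone, a synthetic GC, at 6.25 mg/kg/d (GC) or placebo (control), and callus and trabecular bone were collected at week 2. The labels describe a pellet under the skin for both tissues, whereas the study's text describes daily injection for the fracture model. Each tissue and treatment was sequenced as 1 single-cell RNA library, so the groups were callus control, callus GC, trabecular bone control and trabecular bone GC, and how many mice went into a library is not given in the sources used here. With no replicates, no test between conditions was possible. The intervals below are 95% intervals of counting error alone, and a difference between conditions is a difference between a pair of libraries.

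Matrix metalloproteinases are zinc enzymes that are secreted or held at the cell surface and cut collagens and other matrix proteins. During endochondral fracture repair, cartilage of the callus is mineralized, broken down and replaced by bone, and Mmp13, the main collagenase of rodents, is known for its role in hypertrophic cartilage and in osteoblasts. The ADAMTS aggrecanases cut proteoglycans such as aggrecan, and the TIMP proteins bind metalloproteinases and block their active site.

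Empty droplets were removed in the 3 libraries that list all barcodes. After removal of damaged cells and likely doublets, 6705 callus control, 6890 callus GC, 3803 trabecular control and 4601 trabecular GC cells remained. Their medians were 4231, 3287, 6354 and 5653 UMIs (molecular barcodes, so that 1 UMI stands for 1 RNA molecule counted). Any pair of libraries shared 7 to 10 cell barcodes, where chance gives 2.58 to 6.80. The deposited callus GC matrix listed only barcodes with at least 500 UMIs, so RNA outside cells could be measured in the callus control library and not in its GC counterpart. All 7762 listed barcodes of callus GC therefore went to the later filters without a test against empty droplets, unlike those of callus control. The part of this difference in the callus comparisons was not tested. Cells fell into 29 callus and 27 trabecular clusters, made without the 10 genes, and a cluster was called by a cell type only where its markers allowed. In callus the skeletal clusters with at least 50 cells in both libraries were hypertrophic chondrocyte-like cluster 2 (633 control and 696 GC cells, 5 of 5 markers), chondrocyte-like clusters 3 (557 and 486), 7 (543 and 280) and 9 (504 and 93), each with 12 of 12 markers, stromal-like cluster 10 (250 and 176, 8 of 12 markers) and osteoblast-like cluster 18 (86 and 92, 9 of 11 markers). The stromal label covers skeletal progenitors and the osteoblast label osteocytes. Chondrocyte-like cluster 7 also had Col10a1, a marker of hypertrophic chondrocytes, among its leading genes. Cluster 1 (84 control and 1296 GC cells, led by Ibsp, Tnfrsf11b, Fn1 and Bmp2) and cluster 17 (6 and 176) came mostly from the GC library and kept no name. In cluster 1 the median UMIs per cell were 8417.5 in control and 2774.5 in GC, so its values stand apart from the comparison of the 6 skeletal clusters. Levels are given as CPM, the UMIs of a gene scaled to a common total for each cluster or class.

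Mmp13 (ENSMUSG00000050578) lies at chr9:7272514-7283331 and Mmp3 (ENSMUSG00000043613) at chr9:7445822-7455975 of GRCm38, both on the + strand and 162490 bp apart within a run of metalloproteinase genes. The 250 bases before the start of each gene are shown because these neighbors had promoter motifs in common and unlike levels in callus. The bases come from RefSeq promoter records on GRCm38.p6, chr9:7272264-7272513 and chr9:7445572-7445821, + strand, 5′ to 3′, with the searched motifs in capitals.
Mmp13: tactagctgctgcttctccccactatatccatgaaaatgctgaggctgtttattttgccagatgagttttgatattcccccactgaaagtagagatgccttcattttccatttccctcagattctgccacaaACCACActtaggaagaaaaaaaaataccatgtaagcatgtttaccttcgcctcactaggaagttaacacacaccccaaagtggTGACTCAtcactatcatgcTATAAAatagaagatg
Mmp3: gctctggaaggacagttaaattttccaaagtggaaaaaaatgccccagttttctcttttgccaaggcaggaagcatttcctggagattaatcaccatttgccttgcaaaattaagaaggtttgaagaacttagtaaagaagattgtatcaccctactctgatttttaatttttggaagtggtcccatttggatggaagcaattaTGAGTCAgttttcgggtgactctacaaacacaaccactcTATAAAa
An AP-1 motif (TGAGTCA or its reverse complement TGACTCA) began 35 bases before the start of Mmp13 and 46 bases before that of Mmp3, and stood in 4.46% of 32851 promoters of this length, both strands searched. A TATAAA box, searched on the gene's own strand, began at -16 in Mmp13 and -7 in Mmp3 and stood in 7.59% of promoters. The RUNX core TGTGGT or ACCACA, found in 14.0%, was in the Mmp13 window at -118 and in that of Mmp14 at -114. The Mmp3 window did not hold it. None of these motifs overlapped in the printed sequences, and a match is a match of letters, not a measured binding site. Records for 7 of the 10 genes were found. The windows of Timp1, Timp2 and Timp3 held none of the 3 motifs, that of Adamts1 held TATAAA at -32, and Mmp2, Adamts4 and Adamts5 had no record.

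Of the other genes, Mmp2 (ENSMUSG00000031740) lies at chr8:92827291-92853420 (+) and Mmp14 (ENSMUSG00000000957) at chr14:54431612-54445364 (+). Adamts1 (ENSMUSG00000022893) at chr16:85793827-85803113 (-) and Adamts5 (ENSMUSG00000022894) at chr16:85856173-85901828 (-) are neighbors 53059 bp apart, and Adamts4 (ENSMUSG00000006403) lies at chr1:171250421-171260637 (+). Timp1 (ENSMUSG00000001131, chrX:20870166-20874735, +) lies inside the span of Syn1 and Timp3 (ENSMUSG00000020044, chr10:86300372-86349506, +) inside that of Syn3, both of which are on the opposite strand. Timp2 (ENSMUSG00000017466, chr11:118301069-118355740, -) overlaps Cep295nl on its own strand. Whether reads were counted by strand is not given in the sources used here. The levels of Syn1, Syn3 and Cep295nl were listed apart and stayed at or below 106 CPM in the skeletal clusters.

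**Figure D1:**
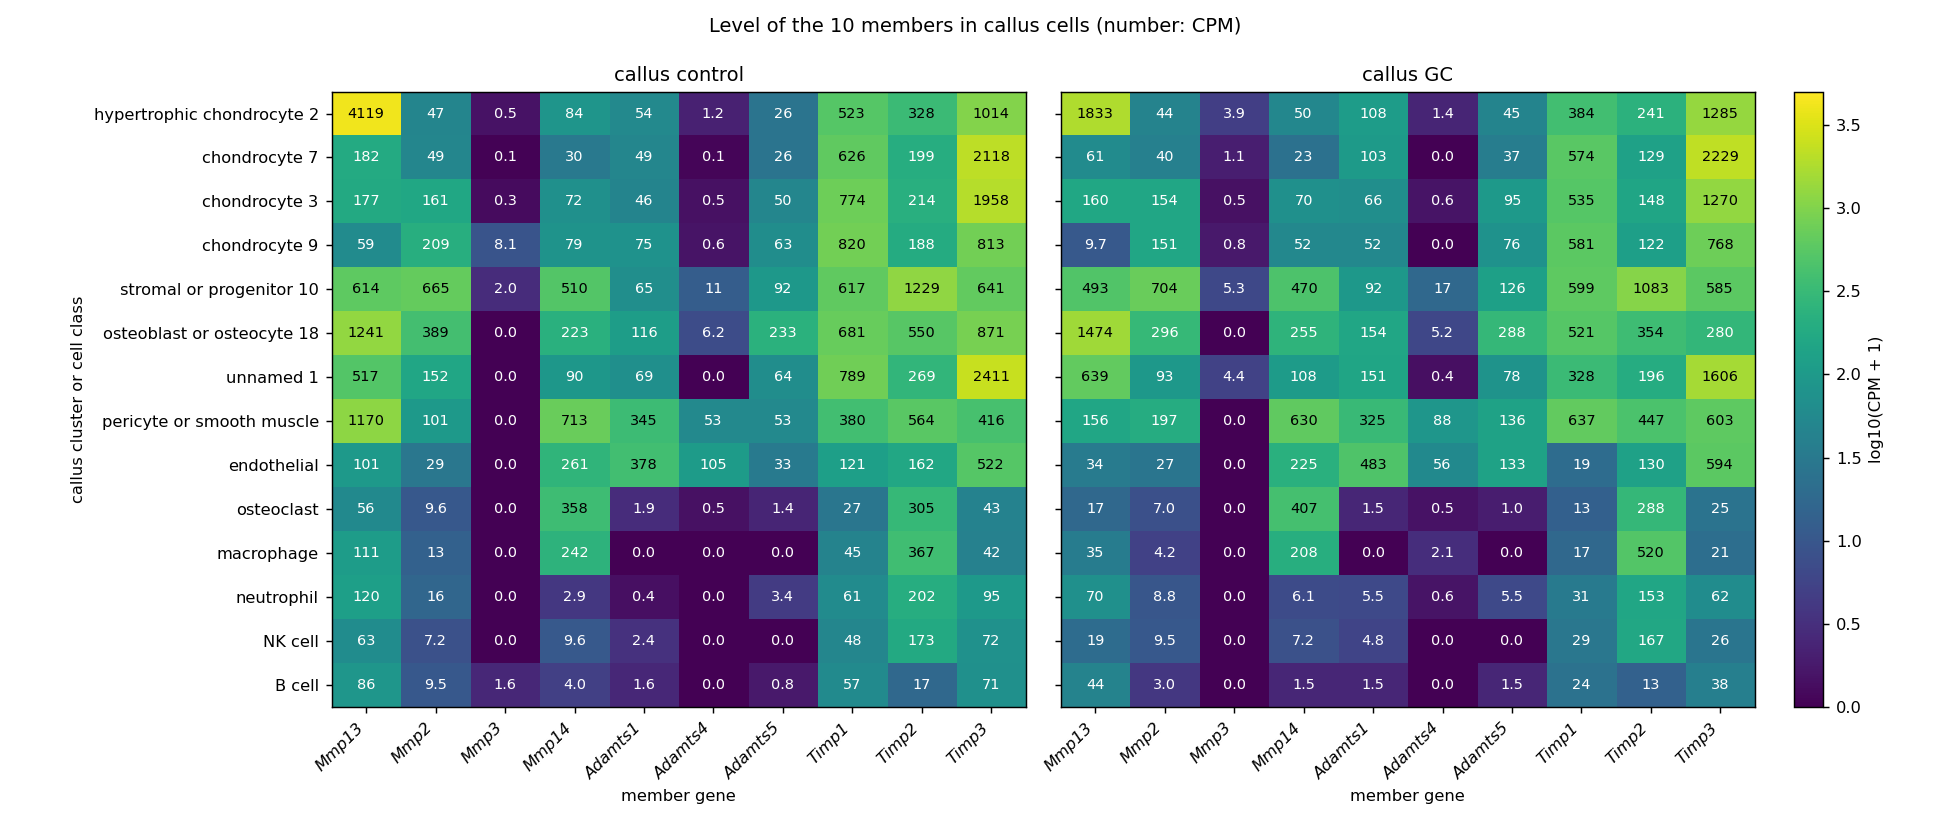
Level of each of the 10 genes (columns) in callus clusters and cell classes (rows), in the control library (left) and the GC library (right); the printed number is CPM and the color is log10(CPM + 1). Mmp13 was highest in hypertrophic chondrocyte-like cluster 2 of both libraries (4119 and 1833 CPM), and Mmp3 and Adamts4 were low in nearly every row.

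Mmp13 was concentrated in hypertrophic chondrocyte-like cluster 2 of callus. In the control library its level was 4119 CPM in hypertrophic chondrocyte-like cluster 2, where 54451 of its UMIs lay, 1241 CPM in osteoblast-like cluster 18, 614 CPM in stromal-like cluster 10, and 182, 177 and 59.5 CPM in chondrocyte-like clusters 7, 3 and 9. The hypertrophic cluster held 79.5% of all Mmp13 UMIs of the control library and 64.5% of those of the GC library, while unnamed cluster 1 went from 0.751% to 12.8%. Chondrocyte-like clusters 7 and 3 were neighbors in this order without a gap wider than counting error. An unnamed cluster of low UMI count, cluster 16 (95 control and 117 GC cells), also carried Mmp13, at 2878 CPM in control and 1400 CPM in GC. In 10 blood cell classes, which are not a usual source of this collagenase, the level ranged from 40.7 to 147 CPM in control and from 10.8 to 70.2 CPM in GC. Droplets without cells in the callus control library held 1146 CPM of Mmp13, and low values elsewhere are to be read beside that background. This level gives the makeup of RNA outside cells, not how much of it entered a cell. In chondrocyte-like cluster 9 the Mmp13 level lay below the 85.8 CPM (control) and 44.3 CPM (GC) of B cells in both libraries.

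In hypertrophic chondrocyte-like cluster 2, Mmp13 was lower in GC than in control, at 1833 against 4119 CPM (22039 and 54451 UMIs). The ratio was 0.445 (0.438 to 0.452), or -1.17 on the log2 scale after adding 5 CPM to both levels, the scale of all log2 ratios below. Among the 10915 genes with at least 50 UMIs in this cluster, 79 (0.724%) differed by at least 2-fold in either direction, and of the 9 of the 10 genes that reached 50 UMIs, Mmp13 was the 1 that did. The ratio missed 2-fold in 3 of 18 other ways of processing and kept its direction in all 18. The log2 ratios of those 3 were -0.73 without removal of doublets, -0.77 with coarser clusters and -0.99 with a looser mitochondrial limit. Changes of the added CPM or of the minimum UMIs, which are among the 18, could not turn a direction.

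Single cells showed the same direction as the summed counts. Of the hypertrophic cells, 589 of 633 in control (93.0%) and 549 of 696 in GC (78.9%) had an Mmp13 UMI. After thinning each cell to 1000 UMIs, the shares were 64.1% of 629 cells and 43.8% of 690 cells, against 8.31% and 4.31% of B cells, whose median depth of 1919 and 1681 UMIs was below the 19438 and 16595 UMIs of the hypertrophic cells. The median cell went from 1637 to 426 CPM, with quartiles of 335 and 5658 CPM in control and 53.8 and 1584 CPM in GC. The 10% of cells with the most Mmp13 held 51.5% of the cluster's Mmp13 UMIs in control and 66.5% in GC, so the signal of the GC library lay in a smaller share of cells. Split into finer clusters, the larger group (347 control and 429 GC cells) went from 1886 to 779 CPM (log2 ratio -1.27), and the group with more Mmp13 (262 and 264 cells) from 6983 to 3439 CPM (-1.02). Both finer groups were lower by at least 2-fold.

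Other genes of hypertrophic cartilage in that cluster moved by smaller ratios and in both directions. Col10a1, the collagen that marks hypertrophic chondrocytes, went from 35659 to 26129 CPM, Ihh, a signal of prehypertrophic cartilage, from 356 to 190 CPM, and Spp1, which encodes osteopontin, from 22701 to 16864 CPM. Ibsp, which encodes bone sialoprotein, was higher in GC, at 13779 against 8731 CPM, and the angiogenic factor Vegfa stood at 1052 and 1053 CPM. The summed level of the 5 hypertrophic markers went from 37886 to 28077 CPM and that of the osteoblast markers from 10694 to 16335 CPM. Most of the hypertrophic sum was Col10a1 and most of the osteoblast sum was Ibsp, so these sums largely repeat the values of those genes. A list of 14 dissociation stress genes stood at 11367 CPM in control and 9241 CPM in GC, and a list of 10 genes known to respond to GCs at 3311 and 4607 CPM. Their part in the Mmp13 ratio was not tested. The names and values of these genes outside the 10 were looked at after the Mmp13 values were known.

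Outside the hypertrophic cluster, the Mmp13 ratio differed from cluster to cluster. It was lower in GC in chondrocyte-like cluster 7, at 60.7 against 182 CPM (log2 ratio -1.51; ratio 0.333, 0.299 to 0.370), and in cluster 9, at 9.69 against 59.5 CPM (-2.13), the latter below the B cell level. In cluster 7 the median cell had 49.6 CPM in control and 0 CPM in GC, and the 10% of cells with the most Mmp13 held 72.8% and 72.2% of its UMIs. The ratio in cluster 7 was past 2-fold in the same direction under 9 of 14 alternatives and missed that limit under the rest. The direction turned under 1 of the 14, in which cells were called by a UMI cutoff alone (log2 ratio 0.70). It was 160 against 177 CPM in cluster 3 (-0.14). After thinning, the share of cells with an Mmp13 UMI there was 5.27% in control, no higher than in B cells (8.31%), and 7.66% in GC, above the 4.31% of B cells. The log2 ratio in cluster 3 was 1.005 after thinning and -1.97 with a stricter mitochondrial limit. In stromal-like cluster 10 the level was 493 against 614 CPM (-0.31). There the median cell had 64.9 CPM in control and 0 CPM in GC, and the 10% of cells with the most Mmp13 held 78.8% and 82.4% of its UMIs. In osteoblast-like cluster 18 it was 1474 in GC and 1241 in control (0.25; ratio 1.19, 1.12 to 1.26), yet 62 of 86 control and 43 of 92 GC cells had a UMI, and 29.8% of the GC UMIs came from 1 cell. For clusters 3, 10 and 18 the direction changed under some of the other ways of processing.

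**Figure D2:**
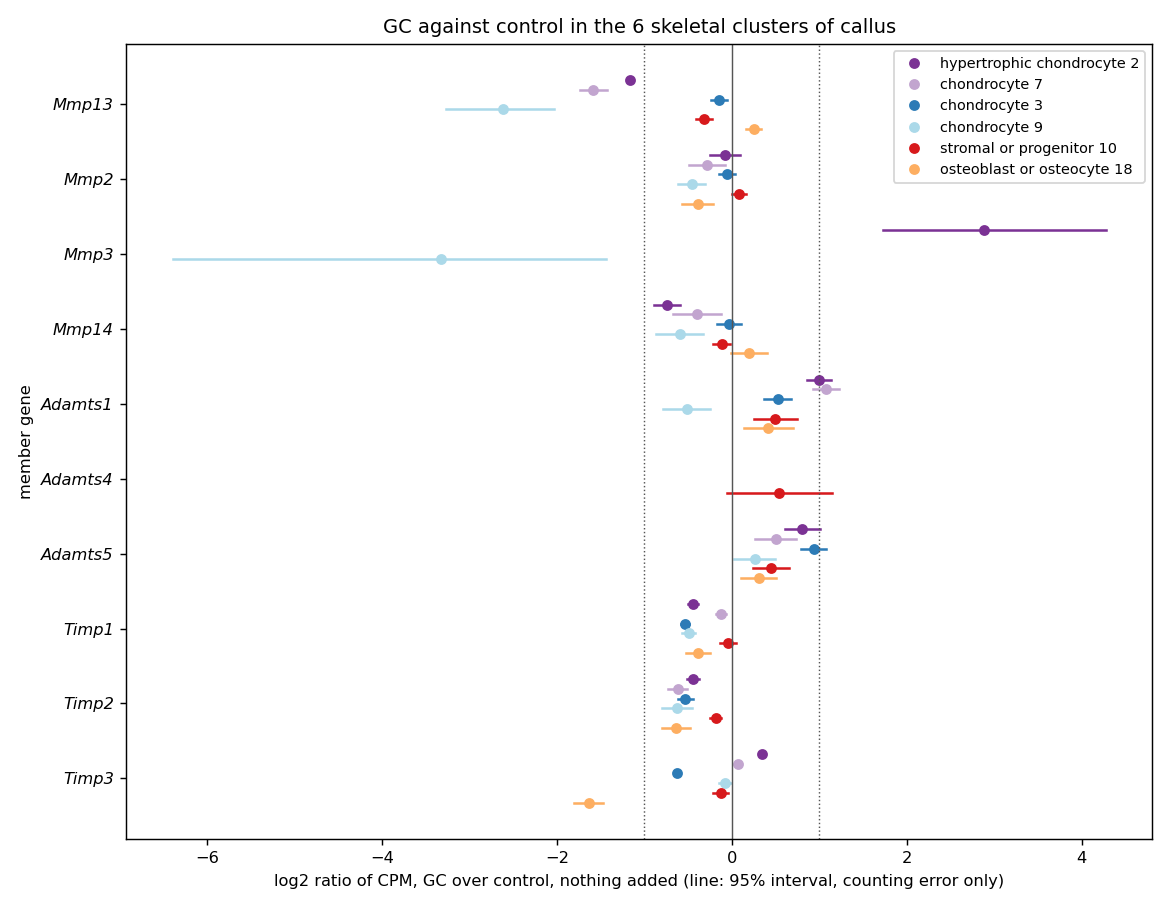
Ratio of GC to control level of each gene in the 6 skeletal clusters of callus, as log2 of the CPM ratio with nothing added; points are shown where a gene had at least 50 UMIs over both libraries, lines are 95% intervals of counting error and dotted lines mark 2-fold. Adamts5 lay above 0 and Timp1 and Timp2 below 0 in all 6 clusters, and Mmp13 spread from far below 0 to just above it.

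Mmp2, a gelatinase, and Mmp14, the membrane-bound enzyme that activates it, were highest in mesenchymal cells and differed little between treatments there. Mmp2 stood at 665 CPM in control and 704 CPM in GC in stromal-like cluster 10 (log2 ratio 0.08), at 389 and 296 CPM in osteoblast-like cluster 18 (-0.39) and at 209 and 151 CPM in chondrocyte-like cluster 9 (-0.45). In cluster 3 it was 161 and 154 CPM, and in clusters 7 and 2 below 50 CPM in both libraries (48.8 and 40.0 CPM, 46.9 and 44.3 CPM). Thus 5 of the 6 clusters had a lower Mmp2 level in GC, 3 of them with an interval that stayed under 1, and the median log2 ratio was -0.17.

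Mmp14 was the member of wider cell range, since it also stood high in the bone-resorbing osteoclasts and in macrophages. The stromal-like cluster had 510 CPM in control and 470 CPM in GC, the osteoblast-like cluster 223 and 255 CPM, osteoclasts 358 and 407 CPM, and macrophages 242 and 208 CPM. B cells held 4.0 and 1.5 CPM. Pericytes or smooth muscle cells, at 713 and 630 CPM, gave the highest level, from 13 and 16 cells. The largest ratio of Mmp14 in the skeletal clusters was that of the hypertrophic cluster, with 83.6 CPM in control and 49.97 CPM in GC (log2 ratio -0.69; ratio 0.598, 0.540 to 0.661). In chondrocyte-like clusters 9, 7 and 3 it was -0.55, -0.33 and -0.03.

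Within the hypertrophic cluster, Mmp14 was found more often in cells that had an Mmp13 UMI than in those without. After thinning, 8.19% of the 403 control cells with an Mmp13 UMI and 0.885% of the 226 cells without had an Mmp14 UMI, and in GC the shares were 11.3% of 302 and 2.32% of 388 cells. Timp3 had the opposite arrangement, at 37.0% and 49.1% in control and 41.7% and 58.5% in GC. Both patterns appeared in each library, and cells of 1 library are not replicates. The finer groups of the cluster differed likewise. In control, the group with more Mmp13 had 135 CPM of Mmp14 and 719 CPM of Timp3, and the larger group 43.1 and 1252 CPM. In GC these levels were 81.6 and 745 CPM, and 29.1 and 1640 CPM. Whether the patterns hold within a finer group was not tested.

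Mmp3, or stromelysin 1, which cuts matrix proteins other than fibrillar collagen, was low in all callus clusters, unlike its neighbor Mmp13. Its highest level among the skeletal clusters was 8.10 CPM in chondrocyte-like cluster 9 of the control library, from 110 UMIs in 13 cells, 48.2% of them in 1 cell. In GC that cluster had 2 UMIs (0.807 CPM; log2 ratio -1.17, ratio 0.0997 with an interval of 0.0119 to 0.369). The hypertrophic cluster went the other way, from 7 UMIs (0.530 CPM, 6 of them in 1 cell) to 47 UMIs (3.91 CPM), which lay in 8 cells with 38.3% in 1. Other genes between and after this pair in the run were low too, with Mmp12 at 0.681 and 0.915 CPM, Mmp10 at 2.42 and 5.40 CPM and Mmp8 at 0.378 and 0.416 CPM in the hypertrophic cluster, where Mmp20 and Mmp7 had no UMI. The levels of Mmp1b and Mmp27, also in the run, were not looked up. Of the genes of this run with a level given, Mmp13 alone was above 6 CPM in that cluster.

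The 3 aggrecanases differed in where they stood. Adamts1, which also acts on versican, was highest in endothelial cells (378 CPM in control, 483 CPM in GC) and in pericytes or smooth muscle cells (345 and 325 CPM), classes of 49 and 71 and of 13 and 16 cells. In the skeletal clusters of the control library it ranged from 45.6 to 116 CPM, and no blood class exceeded 5.53 CPM. Adamts5, the main aggrecanase of mouse articular cartilage, was highest in osteoblast-like cluster 18 at 233 and 288 CPM, and it stood at or below 5.53 CPM in every blood class and at 32.9 and 133 CPM in endothelial cells. Adamts4 had its highest levels in vessel cells. It stood at 105 and 55.5 CPM in endothelial cells (51 and 23 UMIs) and 53.5 and 88.1 CPM in pericytes or smooth muscle cells. It reached 11.4 and 16.7 CPM in the stromal-like cluster and 6.22 CPM at most in the other skeletal clusters.

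Adamts1 was higher in GC than in control in 5 of the 6 skeletal clusters, and in all 5 the interval lay above 1. In chondrocyte-like cluster 7 it was 48.9 CPM in control and 103 CPM in GC (log2 ratio 1.002; ratio 2.10, 1.89 to 2.34). In the hypertrophic cluster it was 54.2 and 108 CPM (0.93; ratio 1.99, 1.82 to 2.19), and both finer groups of that cluster had the same direction, at 1.14 and 0.90. The stromal-like, osteoblast-like and chondrocyte-like 3 clusters had 0.46, 0.40 and 0.48. Chondrocyte-like cluster 9 was the exception, at 74.99 CPM in control and 52.5 CPM in GC (-0.48). After thinning, 5.25% of hypertrophic cells in control and 10.0% in GC had an Adamts1 UMI, and 0 of 590 and 0 of 348 B cells had one, which at this depth allows shares of cells with a UMI of up to 0.508% and 0.862% (3 counts).

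Adamts5 was higher in GC in all 6 skeletal clusters, each with an interval above 1, although no ratio reached 2-fold. The largest was in chondrocyte-like cluster 3, at 49.6 CPM in control and 94.7 CPM in GC (log2 ratio 0.87; ratio 1.91, 1.73 to 2.10), followed by the hypertrophic cluster with 25.8 and 45.1 CPM (0.70). The smallest was 63.3 and 75.9 CPM in chondrocyte-like cluster 9 (0.24), and the median over the clusters was 0.43. Adamts4 had enough UMIs for a ratio in the stromal-like cluster alone, where the log2 ratio was 0.40 with an interval of the plain ratio from 0.959 to 2.20.

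Among the inhibitors, Timp1 and Timp2 were lower in GC in all 6 skeletal clusters. Timp1, which is induced in many connective tissues under repair, stood between 523 and 820 CPM in these clusters of the control library and between 384 and 599 CPM in GC. Its log2 ratio was -0.53 in chondrocyte-like cluster 3 (774 and 535 CPM), -0.49 in cluster 9 (820 and 581 CPM), -0.44 in the hypertrophic cluster (523 and 384 CPM), -0.38 in the osteoblast-like cluster and -0.12 in cluster 7. In the stromal-like cluster the levels of 617 and 599 CPM could not be told apart by counting error (ratio 0.970, 0.913 to 1.03). B cells, whose Timp1 UMIs serve as a background, stood at 57.2 CPM in control and 23.6 CPM in GC.

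Timp2, the inhibitor that also takes part in the activation of Mmp2 by Mmp14, was spread over more cell classes than the other inhibitors. It was highest in the stromal-like cluster, at 1229 CPM in control and 1083 CPM in GC (log2 ratio -0.18). The osteoblast-like cluster had 550.0 and 354 CPM (-0.63; ratio 0.644, 0.577 to 0.718), the hypertrophic cluster 328 and 241 CPM (-0.44), and chondrocyte-like clusters 3, 7 and 9 had -0.52, -0.60 and -0.60. All 6 intervals lay below 1. Macrophages differed in direction, at 367 CPM in control and 520 CPM in GC (0.50; ratio 1.42, 1.18 to 1.71), and osteoclasts had 305 and 288 CPM. Neutrophils had 202 and 153 CPM and natural killer cells 173 and 167 CPM, against 16.7 and 13.3 CPM in B cells.

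Timp3, which stays bound to the matrix and also inhibits aggrecanases, had no common direction. In the osteoblast-like cluster it was 871 CPM in control and 280 CPM in GC (log2 ratio -1.62; ratio 0.322, 0.287 to 0.360), and 69 of 86 and 56 of 92 cells had a UMI. That ratio kept its direction in all 17 other ways of processing and missed 2-fold in 3 of them. The log2 ratios of those 3 were -0.73 with a stricter mitochondrial limit, -0.79 as a mean over cells and -0.72 after thinning. Changes of the added CPM or of the minimum UMIs, which are among the 17, could not turn the direction. Chondrocyte-like cluster 3 had 1958 and 1270 CPM (-0.62), with 72.7% and 53.0% of thinned cells holding a UMI. The hypertrophic cluster went the other way, at 1014 and 1285 CPM (log2 ratio 0.34; ratio 1.27, 1.24 to 1.30) and 41.3% and 51.2% of thinned cells. However, its log2 ratio was 0.0070 when doublets were kept. Cluster 7, where Timp3 was highest of the 6 (2118 and 2229 CPM), stood at 0.07, cluster 9 at -0.08 and the stromal-like cluster at -0.13.

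**Figure D3:**
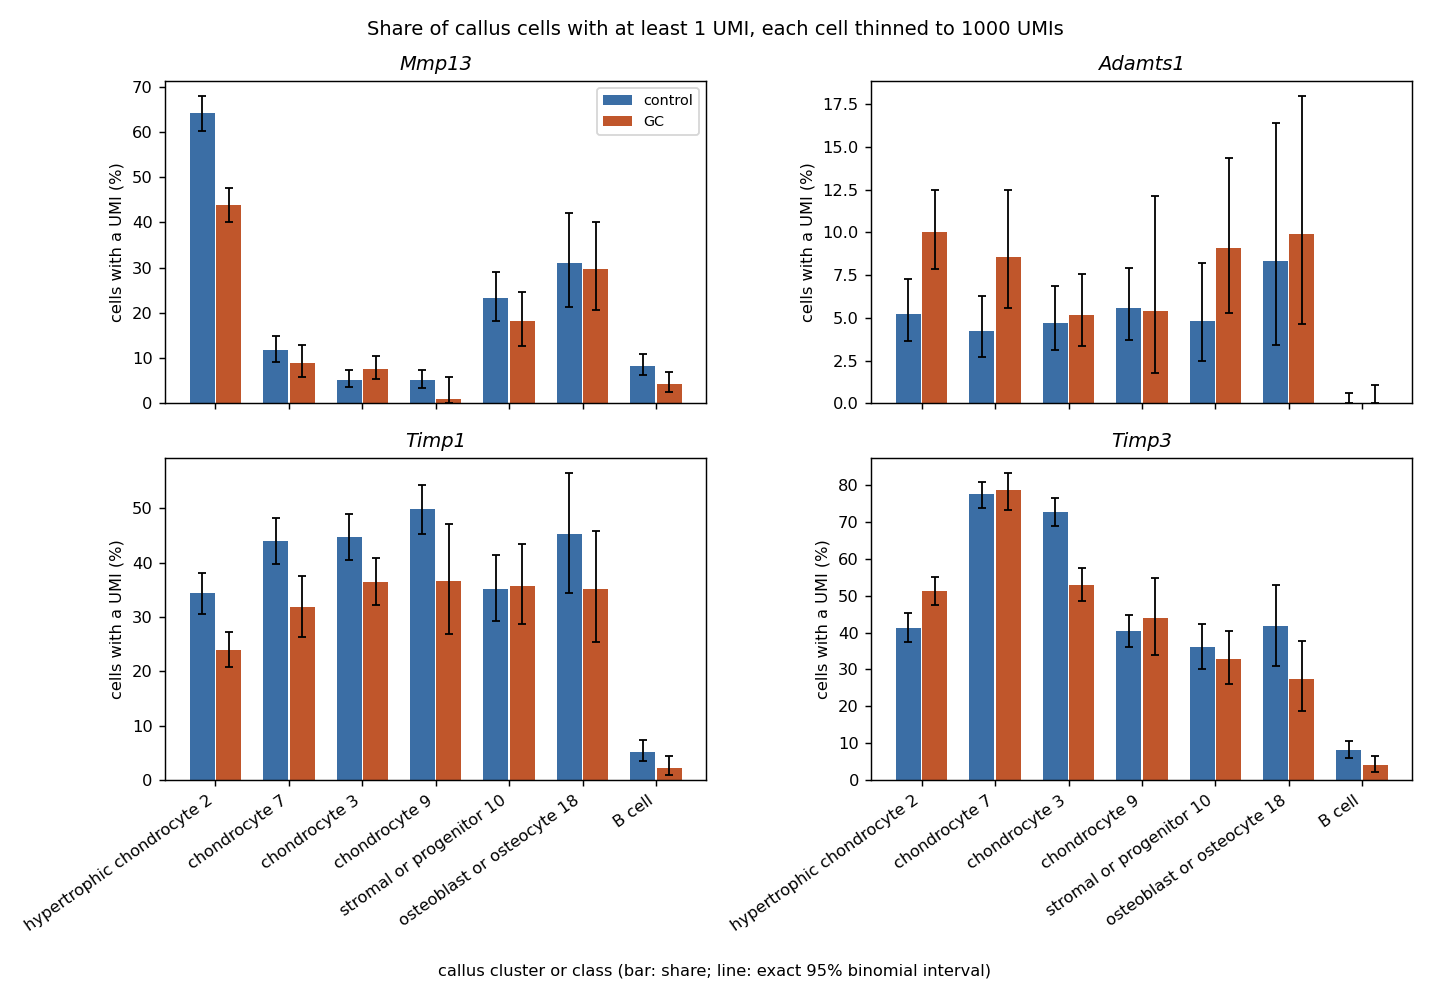
Share of callus cells with at least 1 UMI of Mmp13, Adamts1, Timp1 and Timp3 after each cell was thinned to 1000 UMIs, in the 6 skeletal clusters and in B cells as background; bars are shares in percent, lines are exact 95% binomial intervals, and blue and orange are control and GC. The Mmp13 share of hypertrophic chondrocyte-like cells was 64.1% in control and 43.8% in GC, while their Adamts1 and Timp3 shares were higher in GC.

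Counted over the 10 genes and the 6 skeletal clusters, 51 of 60 pairs had at least 50 UMIs and 6 of these differed by 2-fold or more, 1 higher and 5 lower in GC. These were Mmp13 in clusters 2, 7 and 9, Mmp3 in cluster 9, Timp3 in cluster 18 and, as the higher one, Adamts1 in cluster 7. In cluster 9 the Mmp13 level lay below that of B cells, and the Mmp3 UMIs came from few cells. With the B cell level subtracted the count was 4, without either pair of cluster 9, and the shares of all genes below are without that subtraction. The share of all tested genes at that fold was 0.847% in cluster 3 (0 of 8 members), 0.845% in cluster 7 (2 of 8), 2.09% in cluster 9 (2 of 9), 1.61% in the stromal-like cluster (0 of 9) and 2.08% in the osteoblast-like cluster (1 of 8). The median log2 ratio of all tested genes lay between -0.034 and 0.071 in the 6 clusters, while that of the members was -0.074 in the hypertrophic cluster, -0.10 in cluster 3, -0.19 in cluster 7, -0.49 in cluster 9, -0.043 in the stromal-like cluster and -0.097 in the osteoblast-like cluster. Pairs of a gene over several clusters come from the same libraries and are not independent.

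Over all callus cells pooled, where level and cell makeup cannot be told apart, none of the 10 genes differed by 2-fold, and 79 of 15121 genes (0.522%) did. Mmp13 went from 853 CPM in control to 615 CPM in GC (log2 ratio -0.47), Timp1 from 580 to 381 CPM (-0.60), Timp2 from 280 to 222 CPM (-0.33) and Mmp2 from 138 to 111 CPM (-0.31). Adamts1 stood at 52.2 and 89.0 CPM (0.72) and Adamts5 at 42.7 and 62.9 CPM (0.51). Mmp14, Timp3, Mmp3 and Adamts4 moved by 0.11 or less on the log2 scale. Leaving out clusters 1 and 17, which came mostly from the GC library, gave -0.51 for Mmp13, 0.51 for Adamts1, -0.56 for Timp1 and -0.21 for Timp3.

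Unnamed cluster 1 is given apart because of its unequal numbers and depth. Between its 84 control and 1296 GC cells, Timp1 went from 789 to 328 CPM (log2 ratio -1.25) and Adamts1 from 69.3 to 151 CPM (1.07), so 2 of the 8 members with enough UMIs passed 2-fold, beside 6.29% of 8452 genes. Its Mmp13 level was 517 and 639 CPM (0.30) and its Timp3 level 2411 and 1606 CPM (-0.59). The summed level of the neutrophil markers in this cluster was 94.5 CPM in control and 920 CPM in GC, and Ctsk, an osteoclast protease, went from 83.4 to 404 CPM and Mmp9 from 10.0 to 80.6 CPM. Their part in these ratios was not tested.

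In blood cells of callus, the Mmp13 and Timp1 levels of each class with enough UMIs for a ratio were lower in GC, while Timp2 and Mmp14 varied in direction. Osteoclasts went from 55.9 to 17.02 CPM of Mmp13 (log2 ratio -1.47) and macrophages from 111 to 35.4 CPM (-1.53), which made 1 of 5 and 1 of 3 tested members past 2-fold beside 1.67% and 4.32% of all tested genes. Both levels lay within the range of the other blood classes, and both directions turned when doublets were kept, to log2 ratios of 0.57 and 3.69. Neutrophils had 0 of 5 past 2-fold beside 6.77% of genes, with Mmp13 at 120 and 70.2 CPM and Timp1 at 60.7 and 31.0 CPM. T cells had 2 of 4 members past 2-fold beside 2.86% of genes, Mmp13 (147 and 38.9 CPM) and Timp1 (41.6 and 16.1 CPM). Timp1 was the 1 of 5 in monocytes (49.6 and 20.5 CPM; 4.08% of genes) and the 1 of 3 in B cells (57.2 and 23.6 CPM; 5.08% of genes). Natural killer cells had 0 of 1 beside 3.31%. Mmp14 was higher in GC in monocytes, at 24.6 and 36.7 CPM (0.49). Timp3 in B cells stood at 70.7 and 38.4 CPM. B cells are not a usual source of these proteins, and such UMIs were read as background. The median log2 ratio of all tested genes in B cells was -0.16.

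The wider list of matrix proteases, inhibitors and plasminogen genes, 57 of whose 58 members were in the files, added few large ratios. Of 342 pairs of gene and skeletal cluster, 185 had 50 UMIs and 5 passed 2-fold, 1 higher and 4 lower in GC. By cluster these were 2 of 33 pathway genes in the hypertrophic cluster (0.724% of all tested genes there), 1 of 33 in cluster 9 (2.09%), 1 of 33 in the stromal-like cluster (1.61%), 1 of 26 in the osteoblast-like cluster (2.08%), and 0 of 33 and 0 of 27 in clusters 3 (0.847%) and 7 (0.845%). Serpine2, an inhibitor of serine proteases, was the higher one, at 161 and 370 CPM in chondrocyte-like cluster 9 (log2 ratio 1.18), and Adam19, a membrane protease, went from 60.6 to 19.9 CPM in the osteoblast-like cluster (-1.40). Mmp9, the gelatinase of osteoclasts and neutrophils, stood at 101 and 8.40 CPM in the hypertrophic cluster (-2.98), but 61.5% of its 1336 control UMIs came from 1 cell. It stood at 27.3 and 4.96 CPM in the stromal-like cluster (-1.70), where 57.3% of 124 control UMIs came from 1 cell. The summed osteoclast markers of the hypertrophic cluster were 281 and 280 CPM.

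Within each role of that list, the gene with the most UMIs was often the same across the skeletal clusters. Cst3, the cysteine protease inhibitor cystatin C, led the inhibitors in all 6, with 16874 and 18062 CPM in the hypertrophic cluster, and Plaur, the urokinase receptor, led the plasminogen genes in all 6, with 82.6 and 91.6 CPM there. Mmp23 led the other metalloproteinases except in the hypertrophic cluster, where Mmp9 did. Adamts6 led the other ADAMTS genes in the 4 chondrocyte-like and hypertrophic clusters and Adamts2, a procollagen peptidase, in the stromal-like and osteoblast-like ones. The ADAM leaders were Adam17 in the hypertrophic cluster, Adam15 in cluster 7, Adam12 in the osteoblast-like cluster and Adam19 in the others. Among the remaining genes, Bsg, an inducer of metalloproteinases, led except in the osteoblast-like cluster, where Bmp1 did.

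Trabecular bone held few cells of the kind that make these genes. Its stromal-like cluster had 18 control and 45 GC cells (12 of 12 markers), and Timp2 was the sole member above 8 CPM in all trabecular cells pooled, at 131 CPM in control and 102 CPM in GC (log2 ratio -0.34). None of 7 members with enough UMIs passed 2-fold in the pool, where 1.04% of 12161 genes did. Neutrophils carried Timp2 at 224 and 175 CPM (-0.35), although clusters 2, 4 and 5 held most of the control cells and clusters 1, 3 and 7 most of the GC cells of that class. Monocytes had 20.4 and 6.92 CPM of Timp2 (102 and 36 UMIs; -1.09), the 1 member with enough UMIs there, beside 0.739% of 8793 genes past 2-fold. Droplets without cells held 129 CPM of Timp2 in trabecular control and 88.4 CPM in trabecular GC. Both monocyte levels lay below those of the droplets, and the pooled levels lay near them. Such levels give the makeup of RNA outside cells, not how much of it entered a cell. In callus control the pooled Timp1 and Timp2 levels, 580 and 280 CPM, likewise stood beside 637 and 213 CPM in droplets without cells. The part of RNA outside cells in the trabecular Timp2 levels was not tested.

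In the trabecular stromal-like cluster, Mmp2 went from 866 CPM in control to 346 CPM in GC (log2 ratio -1.31; ratio 0.399, 0.302 to 0.528) and Adamts5 from 560 to 244 CPM (-1.18; ratio 0.435, 0.309 to 0.613). These were 2 of 7 members past 2-fold, beside 14.3% of 1263 genes. For Mmp2, 13 of 18 and 24 of 45 cells had a UMI, and for Adamts5, 12 of 18 and 21 of 45, with 34.2% of the control UMIs in 1 cell. Adamts1 was 238 and 371 CPM (0.63), Timp2 1556 and 1225 CPM (-0.34), Timp3 813 and 964 CPM (0.24), Mmp14 253 and 148 CPM (-0.75) and Timp1 69.0 and 60.01 CPM. Mmp13, at 383 and 201 CPM, came from 2 control and 3 GC cells, 96.0% of the control UMIs from 1 of them. Mmp3 had 4 and 15 UMIs, and Adamts4 0 and 6.

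Cells counted in that cluster differed in more than these genes. The summed stromal markers stood at 10610 CPM in control and 3728 CPM in GC, the osteoblast markers at 10112 and 15490 CPM, and the pericyte markers at 69.0 and 1440 CPM. Neutrophil markers stood at 10181 and 25483 CPM and erythroid markers at 1572 and 20223 CPM. Their part in the lower Mmp2 and Adamts5 levels was not tested.

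**Figure D4:**
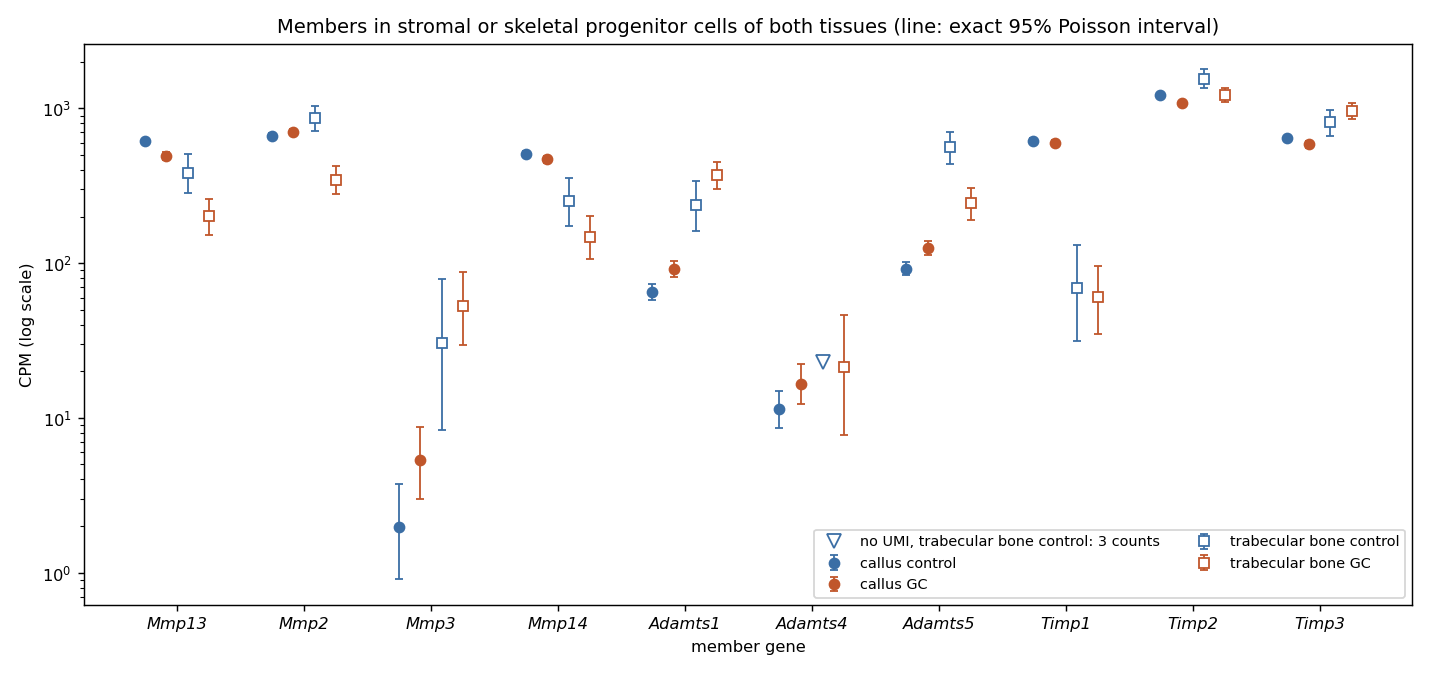
Level of the 10 genes, in CPM on a log axis, in stromal-like cells of callus (filled circles) and trabecular bone (open squares), control in blue and GC in orange; lines are exact 95% Poisson intervals and the triangle is the level of 3 counts where a library had none. Mmp2 and Adamts5 were lower in GC in trabecular bone and not in callus, from 18 and 45 trabecular cells.

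Between the tissues of control mice, all cells pooled, 8 of the 10 genes were at least 2-fold higher in callus once 5 CPM had been added to both levels, as were 17.4% of 14680 genes. The count was 10 with 1 CPM added and 7 with 20 CPM, for which no share of all genes is given. Timp1 was 1328-fold higher in callus (805 to 2372), Mmp13 563-fold (430 to 755) and Timp3 270-fold (231 to 319). Their trabecular counts were 15, 52 and 152 UMIs. Most Mmp13 UMIs of trabecular stromal-like control cells came from 1 cell, which the interval does not cover. Adamts1, Mmp2, Mmp14 and Adamts5 were 52.7-fold, 38.9-fold, 37.4-fold and 15.8-fold higher, and Timp2, which blood cells also carry, 2.13-fold (2.07 to 2.20). Adamts4 had 160 UMIs in callus (1.99 CPM) and none in trabecular bone, where 3 counts would be 0.0874 CPM, so it was at least 22.8-fold higher, and Mmp3 had 135 and 4 UMIs (14.4-fold, 5.51 to 53.8). These were the pair that missed 2-fold after 5 CPM had been added. The median log2 ratio was 3.52 for the members and 0.16 for all genes. These ratios follow the share of skeletal cells in each tissue as well as the level within a cell type, which pooled counts do not separate.

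Likeness of pattern was described by the correlation of log2(CPM + 5) over 45 units of callus class and library, which share libraries and are not independent. Mmp13 was closest to Pdk4 (r = 0.885), Spp1 (0.852) and Hpgd (0.823), and Timp1 to Sox9 (0.976), Smpd3 (0.975) and Col11a1 (0.963), the first a transcription factor of chondrocytes. Timp3 was closest to Ccn2 (0.962), Sparc (0.959) and Kank1 (0.957). Mmp2 was closest to Mrc2 (0.961), Col5a1 (0.955) and Col12a1 (0.953), which include a fibrillar collagen gene, and Mmp14 to Lmna (0.9205), Myof (0.905) and Cd276 (0.881). Adamts1 was closest to Cavin1 (0.952), Amotl1 (0.948) and Yap1 (0.943), Adamts5 to Tnc (0.925), Tcaf1 (0.925) and Bmp1 (0.924), and Adamts4 to Olfml2a (0.928), Col18a1 (0.924) and Rarres2 (0.919). Timp2 had the weakest leaders, Dnmt3a (0.813), Il11ra1 (0.790) and Fos (0.788). Of these leaders, Pdk4 is in the list of genes known to respond to GCs and Fos in the dissociation stress list. Among the 10 genes themselves, Timp1 and Timp3 (0.916) and Adamts1 and Adamts5 (0.912) were the closest pairs, and Mmp3 was too low for the comparison.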

How the data were processed

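The authors deposited, for each library, UMI counts per gene and barcode with no normalization. Per the file headers, Cell Ranger 4 wrote them, whereas the submitters' processing notes name Cell Ranger 5.0.1, Seurat 3.2.0 and mm10, the same assembly as GRCm38. Cell labels were rebuilt here in Python 3.11.15, where scikit-learn 1.9.0 gave the components, leidenalg 0.10.2 on igraph 0.11.9 the clusters, and numba 0.67.0, numpy 2.4.6, pandas 2.3.3 and scipy 1.17.1 the counts and intervals. Matplotlib 3.10.9 drew the figures. The libraries held 95852254 (callus control), 64388215 (callus GC), 41239842 (trabecular control) and 45876714 (trabecular GC) UMIs.

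In the 3 libraries that list all barcodes, cells were barcodes above 10% of the 99th percentile taken over the top 3000, or those with at least 500 UMIs and a profile unlike that of barcodes ranked 45001 to 90000 (Monte Carlo test, 10000 draws, adjusted p of 0.01). Cells with under 200 genes or over 10% mitochondrial UMIs were removed, as were those with the highest doublet scores against simulated pairs (0.8% per 1000 cells), which came to 404, 428, 123 and 183 cells. Control and GC cells of a tissue were clustered jointly (2000 variable genes, 30 principal components, 15 neighbors, Leiden resolution 1), leaving out the 10 genes, the pathway, stress and GC response lists and mitochondrial genes. Clusters were named from at least 3 markers at 2-fold in 10% of cells. Callus skeletal clusters were compared by number and blood cells by class, with at least 50 cells in both libraries in callus and 15 in trabecular bone.

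Levels are CPM with exact Poisson intervals, shares of cells thinned to 1000 UMIs carry Clopper-Pearson intervals, and for ratios the intervals are conditional on the sum of both counts, all at 95%. These cover counting error only. Log2 ratios added 5 CPM and needed 50 UMIs over both libraries. Where a count was 0, the limit is 3 counts. The scripts were tested on simulated data. Gene positions are from GENCODE vM21, joined by identifier.

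The members and lists were chosen with earlier results of these data known. Named besides the 10 genes were the pathway genes past 2-fold in callus skeletal clusters, the leading gene of each role and the 3 genes closest to each member in pattern (at least 50 CPM in a unit). Other genes were named after their values were seen, and 1 pathway result is not reported here. The alternatives covered cell calling, filters, doublets, clustering, thinning, weights, added CPM, minimum UMIs, fold limit and scaling.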

Additional observations from a re-analysis of the deposited data

Results flagged for a closer look

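For 3 results the GC library lay on opposite sides of its control in the 2 tissues. With 1 library for each tissue and treatment, these differences between tissues were not tested. Mmp2 in stromal-like cells had a log2 ratio of GC to control of 0.08 in callus and -1.31 in trabecular bone, a difference of -1.39. Adamts5 in stromal-like cells had 0.43 in callus and -1.18 in trabecular bone, a difference of -1.61. The trabecular values rest on 18 control and 45 GC cells. The summed stromal markers of these cells stood at 10610 CPM in control and 3728 CPM in GC. Their summed osteoblast, pericyte, neutrophil and erythroid markers were higher in GC. The part of these markers in the Mmp2 and Adamts5 ratios was not tested. Timp3 over all cells had -0.11 in callus and 0.40 in trabecular bone, a difference of 0.51, where the trabecular levels were 4.43 and 7.44 CPM. The trabecular ratio turned to -0.19 with clusters weighted as in control, and the callus ratio to 0.19 after thinning to 1000 UMIs.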

How the results depend on the processing

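No paired analysis was possible because each group is 1 library and no value comes from a test. Of 1741 alternative values of 106 single ratios, 1652 kept their direction, and for the 19 ratios past 2-fold 286 of 292 did. These totals include changes of the added CPM and of the minimum UMIs, which cannot turn a direction. The count of callus pairs past 2-fold, 6 as reported, was 3 with a mitochondrial limit of 20%, 3 with at least 500 genes per cell, 2 without removal of doublets, 3 at resolution 0.5, 3 after thinning to 1000 UMIs and 15 at a limit of 1.5-fold. A cluster that was absent or had too few cells under a setting added no pairs, and cluster 7 was absent under some. A lower count therefore does not always mean that a ratio fell under 2-fold. In the callus pool, 0 as reported, it was 1 as a mean over cells (Adamts1, 1.08), 1 after thinning (Adamts1, 1.12), 1 with clusters weighted as in control (Mmp13, -1.06) and 2 at 1.5-fold. In trabecular stromal-like cells, 2 as reported, it was 1 with at least 200 UMIs, 0 after thinning and 5 at 1.5-fold. The minimum of 50 UMIs also held after thinning, which leaves few UMIs in so few cells, so that 0 does not show that a ratio shrank. For this cluster no count was obtained with a stricter mitochondrial limit, a UMI cutoff alone or each library clustered alone. At the reported settings 14.3% of 1263 genes were past 2-fold in those cells. Shares of all genes are given for the reported settings alone, so counts under other settings stand without a background. The Mmp13 share of hypertrophic cells was 74.8% in control and 53.9% in GC at 2000 UMIs and 93.0% and 78.9% unthinned. Less the B cell level, Mmp13 there was 4033 and 1788 CPM. Directions turned for Mmp13 without removal of doublets in osteoclasts (log2 ratio 0.57) and macrophages (3.69). The Mmp13 direction also turned with a UMI cutoff alone in chondrocyte-like cluster 7 (0.70). The cause was not tested. The median log2 ratio of all tested genes was 0.17 in unnamed cluster 1 and -0.16 in B cells, and in the 6 skeletal clusters it stayed within 0.1 of 0. Mmp13 in the hypertrophic cluster ranged from -1.57 to -0.73, Timp3 in the osteoblast-like cluster from -1.84 to -0.72, and Adamts1 in cluster 7 from 0.57 to 1.07. Timp2 kept its direction in all 6 skeletal clusters under every alternative run, as did Adamts1 except in cluster 9 (0.016 without removal of doublets), and Adamts5 did so except in the stromal-like cluster (-0.20 to 0.61). Timp1 turned in some alternatives of clusters 7 and 10. Depth limits Mmp3 and Adamts4, and cell number limits trabecular stroma.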
